A study of Mus musculus with 4 samples.

Results

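The genes that p53 is known to switch on include some that are linked to cell cycle arrest or to recovery from it. Of these, Cdkn1a, Ccng1, Btg2, Gtse1, Plk2, Sesn1, Gadd45a and Zmat3 were followed. The cells were primary neural stem cells of the mouse, which divide and give rise to the neurons and glia of the brain. The 8 genes were picked by symbol as growth arrest targets of p53, out of the 55487 genes in the deposited table. Expression was measured in 4 libraries, with 1 library per group and no replicates. The control was a Tut1f/f culture, whose Tut1 gene is flanked by loxP sites, given an empty lipid nanoparticle (LNP). The library called Tut1 KO came from a Tut1f/f culture given Cre-LNP, particles that carry mRNA for Cre recombinase, an enzyme that cuts out DNA between loxP sites. The Trp53 KO library came from a p53f/f culture and the double KO library from a Tut1f/f;p53f/f culture, both given Cre-LNP. All cultures were grown from embryonic neocortex in medium with growth factors, so deletion took place in the dish and in whichever cells took up the particles. Levels are in TPM, a transcript abundance per length that is scaled to the same total in each library and allows different genes to be compared. Differences are given on the log2(TPM + 1) scale, which understates the change of low genes. No test was run, since a single library per group gives no measure of how cultures vary.

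p53, the product of Trp53, is a transcription factor that is kept scarce in unstressed cells by the ubiquitin ligase Mdm2 and accumulates after DNA damage and other stresses. It binds a response element made of a pair of 10-base repeats and raises transcription of genes for arrest, death, repair and its own feedback. In arrest, the best known step is the product of Cdkn1a, p21, which inhibits cyclin-dependent kinases. This keeps the Rb family of proteins active and thereby holds E2F and later cell cycle genes down. Neural precursors are a tissue in which p53 is known to limit cell number during development.

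The p53 response element was looked for in RefSeq promoter windows (GRCm38.p6, 250 bases before to 50 bases after each annotated start), because it is the sequence through which p53 acts on such genes. Windows were found for 7 of the 8 genes, 10 windows in all, and Zmat3 had no entry. The search took 20 bases that hold a pair of the 10-base p53 repeats with no spacer and with the C and G core of each repeat intact, and it counted departures from the consensus elsewhere. The search is named rather than spelled out because the consensus needs ambiguous letters, and it needs no second pass since the consensus reads alike on both strands. Elements with at most 1 departure were present in Cdkn1a, Ccng1 and Gtse1, while 22 of all 32851 windows (0.067%) held one. Those of Cdkn1a, Ccng1 and Gtse1 are shown with 5 bases on each side and the element in capitals, with the best element of Sesn1, which had 3 departures, for comparison (1.38% of windows held one with at most 3).
Cdkn1a, chr17:29090923-29090952, plus strand: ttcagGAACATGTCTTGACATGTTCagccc
Ccng1, chr11:40755457-40755486, minus strand: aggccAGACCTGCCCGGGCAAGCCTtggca
Gtse1, chr15:85859940-85859969, plus strand: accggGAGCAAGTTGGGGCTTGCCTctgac
Sesn1, chr10:41887261-41887290, plus strand: ccttcAAGCTTGTTTTTGCTGGCCTggtcc

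The Cdkn1a element ended 32 bases before the upstream of its 2 annotated starts, outside the exons and introns of its GENCODE transcripts. The Ccng1 element lay 195 to 176 bases before its start and was outside its transcripts as well. The Gtse1 element began 1 base before the downstream of its 2 starts, in an exon of 1 GENCODE transcript and in an intron of the other. Longer stretches around the elements of the genes that carried the 2 largest Trp53 differences are given next, again with the element in capitals.
Cdkn1a, chr17:29090818-29090967, plus strand: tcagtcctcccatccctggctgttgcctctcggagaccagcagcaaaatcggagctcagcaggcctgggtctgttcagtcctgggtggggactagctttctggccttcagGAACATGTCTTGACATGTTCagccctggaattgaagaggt
Ccng1, chr11:40755387-40755536, minus strand: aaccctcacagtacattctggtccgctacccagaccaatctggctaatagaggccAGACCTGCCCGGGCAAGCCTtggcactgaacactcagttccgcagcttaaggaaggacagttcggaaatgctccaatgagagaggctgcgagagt

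No p53 element with up to 3 departures was found in the windows of Btg2, Plk2 and Gadd45a. That says only that these letters are not there, since p53 elements may lie farther away. The windows of Btg2 and Plk2 did share another sequence, the 8-base palindrome TGACGTCA, known as the cAMP response element and bound by Creb family factors. It was searched for after the windows had been read, reads alike on both strands, and was present in 588 of all windows (1.79%). It is shown in capitals with 11 bases on each side.
Btg2, chr1:134079303-134079332, minus strand: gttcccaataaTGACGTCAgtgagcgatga
Plk2, chr13:110394971-110395000, plus strand: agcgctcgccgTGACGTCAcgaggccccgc

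The targeted genes and the cell type were checked first. In all that follows, the intact pair is the control and Tut1 KO, the deleted pair is Trp53 KO and double KO, and values are given in that order. Trp53 stood at 119.9 and 100.4 TPM in the intact pair and at 39.7 and 41.9 TPM in the deleted pair, so both libraries labelled as Trp53-deleted were lower, though not at 0. Tut1 went against its label, since it was highest, at 29.8 TPM, in the library labelled Tut1 KO (control 12.2 TPM, deleted pair 12.5 and 13.7 TPM). A gene-level value does not show which exons were read, and every direction drawn from the Tut1 label rests on the label. The control and double KO libraries expressed the Y-linked gene Ddx3y (24.4 and 25.7 TPM), and the other 2 libraries Xist (188 and 204 TPM). Sex-linked expression therefore differed within each Trp53 contrast, in opposite directions. All 10 neural stem cell markers were above 1 TPM in every library, with a summed level of 10716 to 12600 TPM. Summed levels of 5 microglial, 4 endothelial, 4 fibroblast and 3 erythroid markers stayed at or below 1.14 TPM, and Cx3cr1, Aif1, Cdh5, Dcn and Lum were listed at 0 in all libraries. The 8 neuronal markers summed to 189.8 to 260.0 TPM, 4 astrocyte markers to 82.2 to 93.5 TPM and 5 oligodendrocyte lineage markers to 572 to 669 TPM, and the neuronal and oligodendrocyte sums were lowest in the Tut1 KO library. In bulk samples a smaller share of cells that express a gene and less RNA per cell cannot be told apart.

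The arrest genes were read by the Trp53 label in 2 contrasts that share no library. The first was Trp53 KO minus control, the second double KO minus Tut1 KO. In the first, the treatment (Cre-LNP against empty LNP) differed too, whereas in the second both cultures received Cre-LNP. Both deleted libraries came from cultures that carried p53f/f, and neither intact library did. Deletion of Trp53 and the line of the culture therefore cannot be told apart in either contrast. All 8 genes reached 10 TPM in at least 1 library and were kept. In 6 of them, Cdkn1a, Ccng1, Zmat3, Gtse1, Btg2 and Plk2, both Trp53-intact libraries lay above both Trp53-deleted libraries, an order shown by 13.4% of the 9314 genes with at least 10 TPM in some library. Sesn1 and Gadd45a overlapped between the labels, and no arrest gene showed the opposite order (14.2% of all genes did). Summed over the 8 genes, the level was 1013 and 1123 TPM in the intact pair and 502 and 517 TPM in the deleted pair. Cdkn1a made up 47.1% and 53.9% of the sum in the intact libraries and 39.0% and 34.5% in the deleted ones. Without Cdkn1a the sums were 536, 518, 306 and 339 TPM in the same order of libraries, so the split did not rest on that gene alone.

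**Figure D1:**
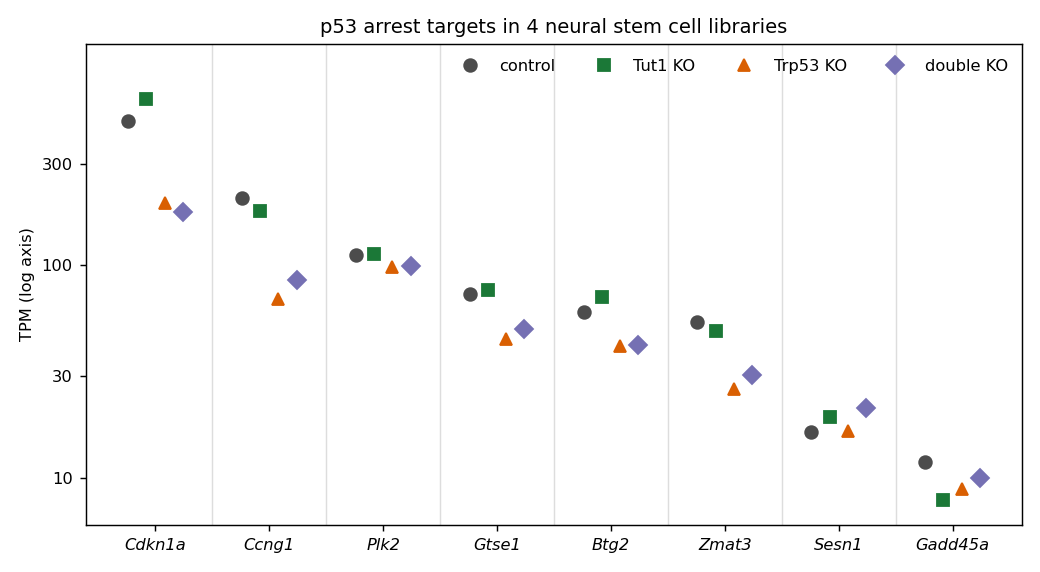
Level of each arrest gene in TPM (log axis) in each of the 4 libraries, 1 point per library, with genes ordered by their control level. For Cdkn1a, Ccng1, Plk2, Gtse1, Btg2 and Zmat3 the circle and square (Trp53 intact) sit above the triangle and diamond (Trp53 deleted), narrowly so for Plk2, and for Sesn1 and Gadd45a they do not.

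A gene was called at a difference of at least 1 in size, among genes with at least 10 TPM in 1 or both of the libraries compared. In Trp53 KO minus control, 3 of the 8 genes were lower by at least 1 (Cdkn1a, Ccng1 and Zmat3), beside 1.91% of 9055 genes. In double KO minus Tut1 KO, 2 were (Cdkn1a and Ccng1), beside 1.77% of 8950 genes. Cdkn1a and Ccng1 were lower by at least 1 in both contrasts, which held for 0.451% of the 9314 genes. At 1.5-fold, 4 genes were lower in the first contrast (4.33% of all genes) and 5 in the second (4.18%). Cdkn1a, Ccng1, Zmat3 and Gtse1 were lower at that size in both, beside 1.12% of all genes, and Btg2 in the second alone. None was higher by at least 1 in either contrast, where 1.92% and 2.13% of all genes were. Counted by sign alone, 7 of the 8 were below 0 in the first contrast (59.9% of all genes) and 6 in the second (39.7%). Of the 7, Gadd45a passed the minimum in the first contrast through the control library alone, where it was high, and its sign there was set in part by that minimum. The 8 genes had medians of -0.61 and -0.63 in the 2 contrasts, and all genes tested had -0.05 and 0.09.

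**Figure D2:**
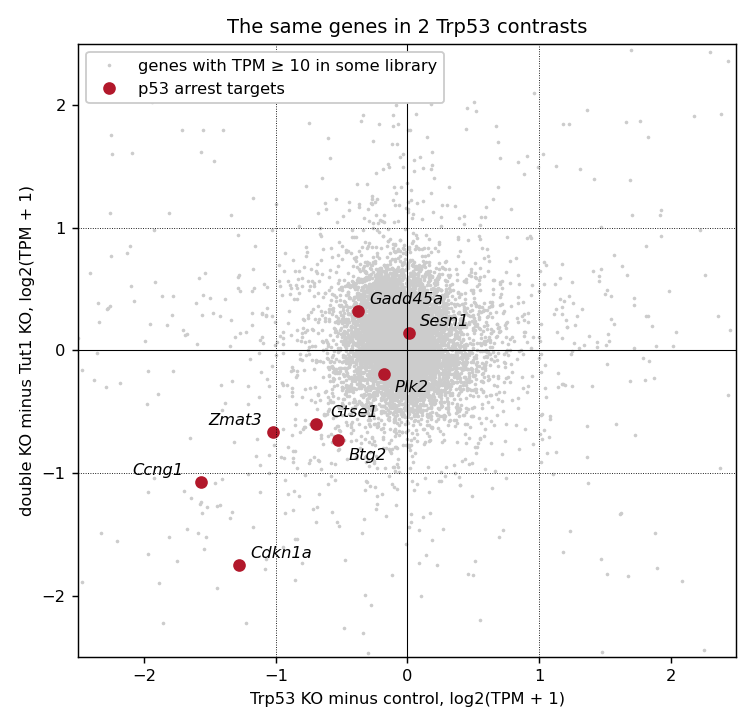
Difference of each gene on the log2(TPM + 1) scale in Trp53 KO minus control (horizontal axis) and double KO minus Tut1 KO (vertical axis), which share no library. Grey points are 9195 of the 9314 genes with at least 10 TPM in some library (119 lie beyond the axes), red points the 8 arrest genes and dotted lines the threshold of 1. The red points of 6 genes lie below 0 on both axes, with Cdkn1a and Ccng1 past the threshold on both axes.

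Cdkn1a (ENSMUSG00000023067, chromosome 17, 29090976 to 29100727, plus strand, GRCm38), which encodes the kinase inhibitor p21, was the most abundant of the arrest genes in every library. It stood at 477 and 605 TPM in the intact pair and at 196 and 179 TPM in the deleted pair. The pairs were far apart and did not overlap. Its level in the Trp53 KO library was 41.1% of the control (difference -1.28), and in the double KO library 29.5% of the Tut1 KO library (difference -1.75). By the gap between the lowest intact and the highest deleted library, 1.28 on the log2 scale, it ranked 16 among the 9314 genes. By TPM it ranked 761 and 846 among all genes in the deleted pair, which still held Trp53 transcript, compared with 287 in the control.

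Ccng1 (ENSMUSG00000020326, chromosome 11, 40748552 to 40755311, minus strand) encodes cyclin G1, which recruits a phosphatase to Mdm2 and takes part in p53 feedback and cell cycle control. Its level was 208 and 181 TPM in the intact pair and 69.4 and 85.5 TPM in the deleted pair. The intact libraries were again well above the deleted ones. The Trp53 KO level was 33.4% of the control (difference -1.57) and the double KO level 47.2% of the Tut1 KO level (difference -1.07). Its gap of 1.07 ranked 28.

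Zmat3 (ENSMUSG00000027663, chromosome 3, 32334792 to 32366014, minus strand) encodes a zinc finger RNA-binding protein, also known as Wig1, through which p53 acts on mRNA stability and splicing. Levels were 54.1 and 49.2 TPM in the intact pair and 26.1 and 30.6 TPM in the deleted pair. Both deleted libraries were below both intact ones, with differences of -1.02 and -0.67. The first of these lay just past the threshold and moved inside it under 3 of the alternative settings (-0.92 to -0.97).

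Gtse1 (ENSMUSG00000022385, chromosome 15, 85859745 to 85876573, plus strand) encodes a microtubule-associated protein of the G2 and S phases that moves p53 out of the nucleus and so helps cells recover from arrest. The intact pair held 73.4 and 76.5 TPM and the deleted pair 44.9 and 50.1 TPM. The pairs did not overlap, and the differences, -0.70 and -0.60, were close to each other.

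Btg2 (ENSMUSG00000020423, chromosome 1, 134075170 to 134079120, minus strand) encodes an antiproliferative protein that promotes mRNA deadenylation and is known to mark neural precursors about to make neurons. The intact pair held 60.6 and 71.0 TPM and the deleted pair 41.7 and 42.3 TPM. The intact libraries were higher, with differences of -0.53 and -0.73. Plk2 (ENSMUSG00000021701, chromosome 13, 110395046 to 110400844, plus strand) encodes a polo-like kinase of early cell cycle stages. Its levels were 112 and 113 TPM in the intact pair and 98.7 and 98.9 TPM in the deleted pair. The order was the same as for the other 5 genes but the step was small, with differences of -0.18 and -0.19, and 27.2% and 18.9% of all genes tested were lower than that in the same contrasts. The level of Plk2 varied least among the 8 genes, by a factor of 1.15 between its highest and lowest library.

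Sesn1 and Gadd45a, the 2 arrest genes of lowest level, did not follow the Trp53 label. Sesn1 (ENSMUSG00000038332, chromosome 10, 41809935 to 41908424, plus strand) encodes a sestrin, a stress protein that restrains mTORC1 signalling. The intact pair held 16.4 and 19.3 TPM and the deleted pair 16.6 and 21.4 TPM. Its highest level was thus in a deleted library, and its differences were 0.01 and 0.14. Gadd45a (ENSMUSG00000036390, chromosome 6, 67035096 to 67037457, minus strand) encodes a small stress protein that inhibits the G2 kinase Cdk1 and activates stress kinases. Levels were 11.8 and 7.82 TPM in the intact pair and 8.88 and 10.01 TPM in the deleted pair. The highest and the lowest library were both Trp53-intact, and the differences, -0.37 and 0.32, had opposite signs. Gadd45a passed the minimum of 10 TPM through a single library in each Trp53 and Tut1 contrast, through the control in both that include it and otherwise through the double KO library. Exons of E230016M11Rik overlap it on the other strand, with 2.12 to 3.08 TPM across libraries, and whether the counting used strand is not given in the sources used here. Cdkn1a also has an annotated exon overlap on the other strand, with a gene for which no value was used here.

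**Figure D3:**
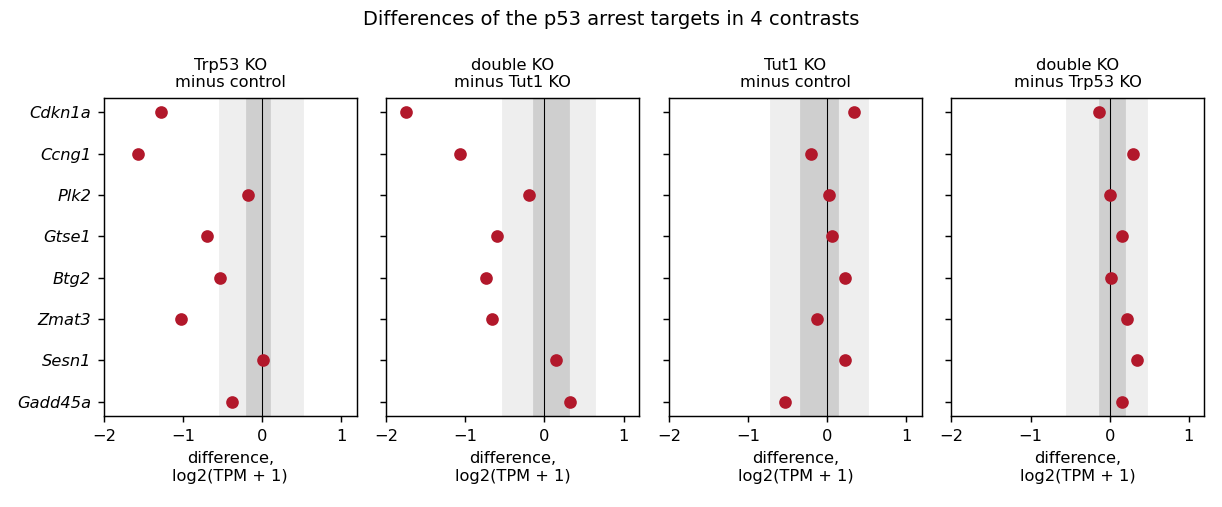
Differences of the 8 arrest genes on the log2(TPM + 1) scale in 4 contrasts, 1 point per gene. The light band spans the 5th to 95th percentile of all genes tested and the dark band the 25th to 75th, and points lie left of the light band in both Trp53 panels for Cdkn1a, Ccng1, Zmat3, Gtse1 and, in the second panel and just inside it in the first, Btg2, while no point leaves it in the Tut1 panels.

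The arrest genes were also read in the contrasts for the Tut1 label, first with Trp53 intact by Tut1 KO minus control, then between the Trp53-deleted libraries by double KO minus Trp53 KO. The 2 contrasts share no library, and the former compares Cre-LNP with empty LNP as well, whereas the latter compares cultures that both received Cre-LNP. With Trp53 intact, none of the 8 genes was called in either direction, where 1.48% of 9032 genes were higher and 2.61% lower. Above 0 were 5 genes and below 0 were 3, where 60.7% of all genes tested were below, and the median was 0.04 beside -0.09 for all genes. The highest was Cdkn1a, at 127% of the control level in the Tut1 KO library (difference 0.34, above 89.5% of the genes tested). Btg2 (0.23) and Sesn1 (0.22) followed, and Gtse1 (0.06) and Plk2 (0.02) were nearly level. The values were -0.13 for Zmat3, -0.20 for Ccng1 and -0.54 for Gadd45a, of which the first 2 turned to 0.115 and 0.12 with a correction for GC content and length. The genes with the largest Trp53 differences thus lay on both sides of 0 in this contrast as deposited, but not after that correction.

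Between the Trp53-deleted libraries, again none of the 8 genes was called, where 1.41% of 8976 genes were called higher and 1.79% lower. Cdkn1a was at 91.1% of its Trp53 KO level (difference -0.13) and the other 7 genes were above 0, with 41.3% of all genes tested below. Those of Btg2 (0.02) and Plk2 (0.003) were close to 0 and turned negative under other scalings. The sign differed between the 2 Tut1 contrasts in 4 of the 8 genes, near the 54.2% of 8694 genes in which it did. The highest were Sesn1 (0.35), Ccng1 (0.30) and Zmat3 (0.22). The median was 0.15, and that of all genes tested 0.05. Cdkn1a was therefore highest in the library labelled Tut1 KO and lowest in the double KO library, whereas Ccng1 and Zmat3 were highest in the control and lowest in the Trp53 KO library. In double KO minus control, which shares its libraries with the contrasts above, Cdkn1a (-1.41) and Ccng1 (-1.27) were lower by at least 1, beside 1.85% of 9022 genes, and none was higher by that much (1.46%).

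Most arrest genes belong to families, and the relatives were read as a comparison on the same libraries. The relatives were picked by family, so they are not a set known to be free of p53 control. Of 20 relatives, 15 reached 10 TPM in some library. Both intact libraries lay above both deleted ones in 4 of the 15, and below in 7, beside 13.4% and 14.2% of all genes. Among these, Plk3 reached 10 TPM only in the intact pair and Tob2 only in the deleted pair, where each was high, and the counts were also 4 and 7 of 15 with the minimum set on the mean over all 4 libraries. Cdkn1b (p27) and Cdkn1c (p57), the other inhibitors of the p21 family, had differences of 0.09 and 0.52, and of 0.32 and 0.49, in the first and second Trp53 contrast. Their direction was opposite to that of Cdkn1a in both contrasts. Ccng2, which encodes cyclin G2, had 0.24 and 0.28 where Ccng1 had -1.57 and -1.07.

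Among the relatives of Btg2, Tob1 had 41.1 and 46.8 TPM in the intact pair and 28.4 and 26.3 TPM in the deleted pair. Its pairs did not overlap, and its differences (-0.52 and -0.81) were of the size of those of Btg2. Btg1 (0.29 and 0.10), Btg3 (0.05 and 0.16) and Tob2 (0.29 and 0.39) were on the other side of 0. In the sestrin family, Sesn2 had 59.1 and 71.1 TPM in the intact pair and 33.0 and 30.7 TPM in the deleted pair. The Trp53 order that Sesn1 lacked was thus present in Sesn2, with differences of -0.82 and -1.19, and Sesn2 had the higher level of the 2 genes in every library. Sesn3 had 15.8 to 18.0 TPM with differences of -0.17 and 0.09.

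Of the polo-like kinases, Plk3 had -0.40 and -0.22, Plk1 0.15 and 0.27, and Plk4 0.42 and 0.72. Plk4, which controls centriole duplication, thus pointed away from Plk2. Gadd45g (0.44 and -0.75) differed in sign between the contrasts like Gadd45a, but in the opposite order. Gadd45b stayed under 10 TPM. Zmat2 had -0.12 and -0.11, and Zmat5 0.31 and -0.17, so neither matched the size seen for Zmat3.

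**Figure D4:**
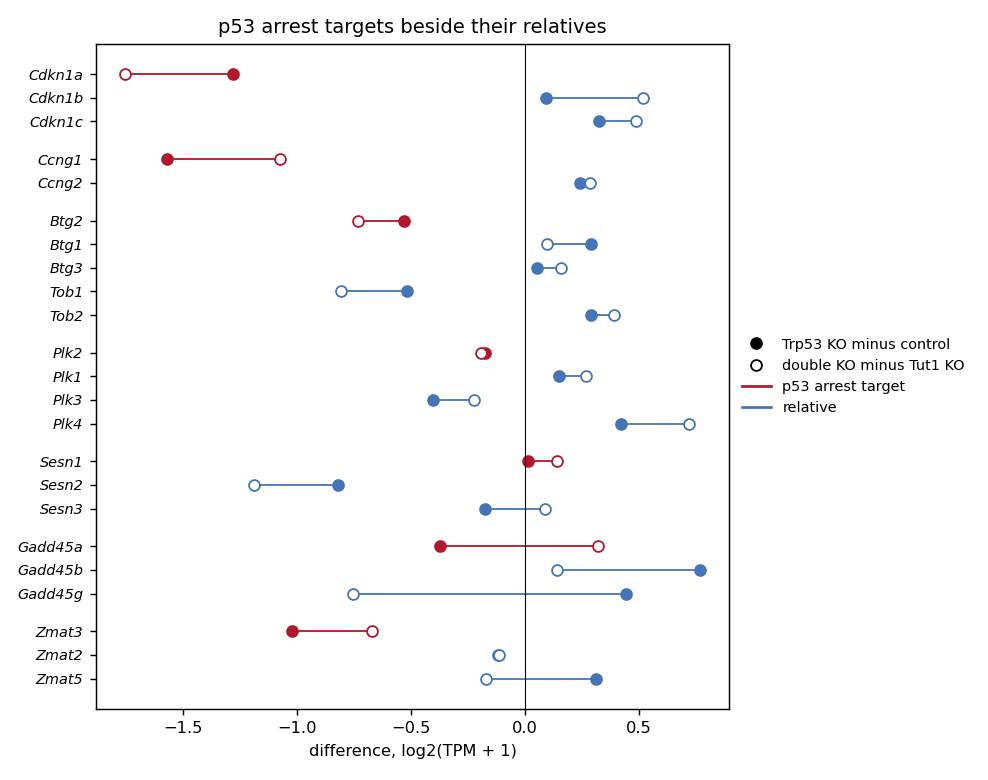
Differences on the log2(TPM + 1) scale in Trp53 KO minus control (filled points) and double KO minus Tut1 KO (open points) for the arrest genes (red) and their relatives (blue), grouped by family with a line joining each gene's 2 values. Both points of the relatives Sesn2, Tob1, Plk3 and Zmat2 lie left of 0, as for Cdkn1a, Ccng1, Btg2, Plk2 and Zmat3. Sesn1 has none there and Gadd45a has 1 (-0.37), and the relatives of Cdkn1a and Ccng1 lie to the right of 0. Gtse1 is not drawn.

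The rest of the p53 pathway gave the setting for these values. Of 14 p53 targets in apoptosis, 13 reached 10 TPM in some library, but 4 of these (Pmaip1, Fas, Perp and Tnfrsf10b) did so only in the intact pair, where they were high, so their direction was set in part by that minimum. Genes with a mean of at least 10 TPM over all 4 libraries were therefore counted, a choice made after seeing the data, and 9 of 10 such apoptosis targets were higher in both intact libraries, beside 13.3% of 8664 genes. With no minimum, the median mean difference (the average of the 2 Trp53 contrasts) was -1.09 over all 14 apoptosis targets and -0.64 over the 8 arrest genes. Called lower in both Trp53 contrasts were Trp53inp1 (-1.58 and -1.26), which promotes autophagy and cell death, Pmaip1 (-1.41 and -1.05), which encodes the BH3-only protein Noxa, and Tnfrsf10b (-1.12 and -1.15), a death receptor. Trp53inp1 alone among these 3 also reached 10 TPM in the deleted pair. Of 8 other p53 targets linked to arrest, 4 reached 10 TPM. Gdf15, Rprm and Ptprv were higher in both intact libraries, beside 13.4% of all genes. The fourth, Ccnk, which encodes a cyclin of transcription, was called higher in the second Trp53 contrast (1.05) and had -0.10 in the first. The direction of Gdf15 and Ptprv was set in part by the minimum, which they passed only through intact libraries. With the minimum on the mean, 2 of 3 such targets were higher in both intact libraries, beside 13.3% of all genes. Gdf15 reached the minimum only in the intact pair, with 13.2 and 18.4 TPM there and 6.87 and 5.67 TPM in the deleted pair. Ptprv, for a phosphatase that p53 is known to switch on in mouse cells, reached 10 TPM in the Tut1 KO library alone, with 2.39 and 10.1 TPM in the intact pair and 0.45 and 1.38 TPM in the deleted pair. Rprm, which encodes the G2 arrest protein Reprimo, had 72.2 and 77.9 TPM against 43.8 and 50.2 TPM. Of 14 regulators and feedback genes, 13 reached 10 TPM, of which 3 (Mdm2, Mdm4 and Rchy1) were higher and 2 (Usp7 and Trp53bp1) lower in both intact libraries, where all genes gave 13.4% and 14.2%. The median of the regulators was 0.07, and Mdm2 had 69.1 and 69.6 TPM in the intact pair and 38.8 and 43.4 TPM in the deleted pair. Of 12 repair and metabolism targets, 7 reached 10 TPM, 1 of them only in the intact pair. Higher in both intact libraries were 3 of the 7, beside 13.4% of all genes. With the minimum on the mean, 3 of 5 were, beside 13.3% of all genes. Mean differences ran from -0.79 to 0.04 over those 7 genes and up to 0.82 (Gls2, a mitochondrial glutaminase gene) over all 12.

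Genes of the cell cycle itself, which lies downstream of p21, were read next. Of 18 G2 and M phase genes, all reached 10 TPM and none was called in either Trp53 contrast, where 1.91% and 1.92% of all genes were called lower and higher in the first and 1.77% and 2.13% in the second, so that few calls would be met in a list of this size. Of the 18, 9 were lower in both intact libraries, beside 14.2% of all genes. Their medians were 0.09 and 0.29 in the first and second Trp53 contrast, with all 18 above 0 in the latter, where 5399 of 8950 genes were above 0. Gtse1 is itself expressed in this part of the cycle. Its mean Trp53 difference was -0.65, and those of the 18 genes ranged from -0.02 to 0.33. What lies behind this was not tested. Of 12 cyclins, kinases and partners of G1 and S phase, 11 reached 10 TPM and had medians of -0.15 and 0.15. Cdk2, the kinase that p21 is best known to inhibit, was called lower in the second contrast (-1.12) and had 0.64 in the first, the only call in that list in either contrast. In Tut1 KO minus control, 17 of the 18 G2 and M genes were below 0 with a median of -0.22, beside 60.7% and -0.09 for all genes, and Ccnb1, which encodes cyclin B1, lay just past the threshold, at 185 and 92.0 TPM in the intact pair. The summed level of the 18 genes was 2001 TPM in the Tut1 KO library and 2352 to 2470 TPM in the others. The part of the p53 targets in this was not tested.

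Sets driven by other signals were read because Gadd45a, Sesn2 and Btg2 are known to respond to them too. The Atf4 stress response genes (7 of 10 reached 10 TPM) had medians of 0.32 and 0.21 in the 2 Trp53 contrasts, opposite to the arrest genes, and 4 of the 7 were lower in both intact libraries, beside 14.2% of all genes. The immediate early genes (8 of 10) had medians of -0.09 and -0.01, so Btg2 (-0.53 and -0.73) was lower than their middle in both contrasts. How far either programme contributed to single arrest genes was not tested.

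**Figure D5:**
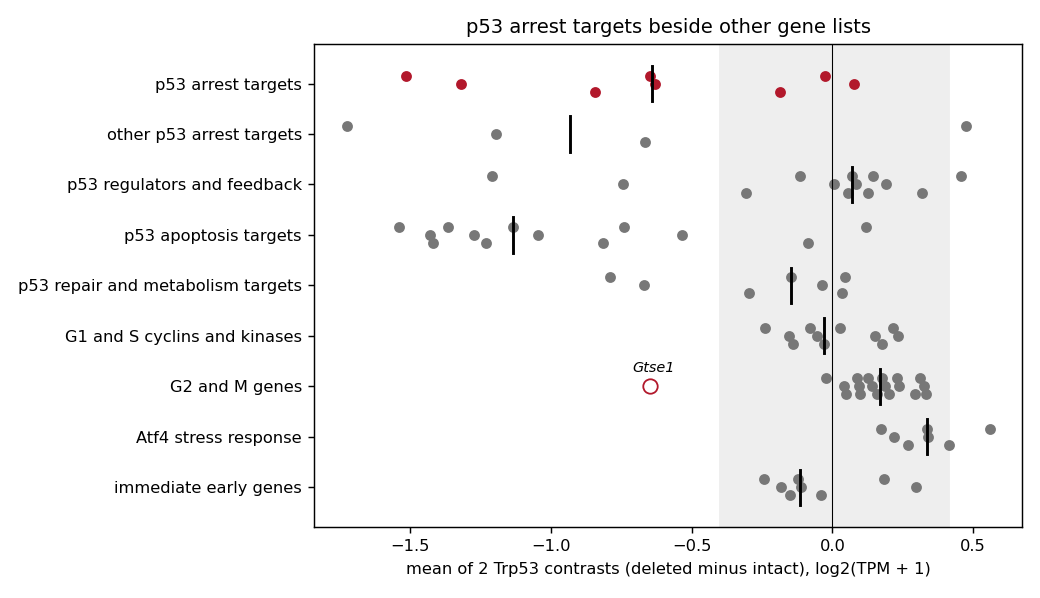
Mean of the 2 Trp53 contrasts (deleted minus intact, log2(TPM + 1)) for each gene with at least 10 TPM in some library, by gene list, with a black bar at the list median and a grey band from the 5th to the 95th percentile of all genes. Of the 8 arrest genes (red), Cdkn1a, Ccng1, Zmat3, Gtse1 and Btg2 lie left of the band, and Gtse1, drawn again as an open circle beside the G2 and M genes, lies left of all 18 of them.

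Genes of like pattern were named by distance, the Euclidean distance between log2(TPM + 1) values over the 4 libraries after each gene was centred on its own mean. Closest to Cdkn1a were Dmrtb1 (distance 0.26), Phlda3 (0.31), Gdf15 (0.34), Dmxl2 (0.34) and Orai1 (0.37). Phlda3 and Gdf15 are known p53 targets and were on the lists above. Dmrtb1, for a DM domain transcription factor, had 87.8 and 107 TPM in the intact pair and 29.4 and 34.1 TPM in the deleted pair. Closest to the mean pattern of the 8 genes were Arhgap11a (0.08), Exoc4 (0.08), Rprm (0.09), Mdm2 (0.11) and Ctnna1 (0.11). With 4 libraries there are few ways for a pattern to differ, and likeness here is a description.

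The promoter elements were then set beside the values. Of the 3 genes that held a p53 element with at most 1 departure, Cdkn1a and Ccng1 had the 2 largest mean Trp53 differences among the 8 arrest genes (-1.52 and -1.32), and Gtse1 the fourth (-0.65). Zmat3 (-0.84), which had no window, was between them. Btg2 and Plk2, which share the cAMP element, had -0.63 and -0.19, and Sesn1, with a weaker p53 element, 0.08. Among all genes with at least 10 TPM in some library, 5 held a p53 element with at most 1 departure in a promoter window. The other 2, picked out after their values were seen, were Rps27l, a ribosomal protein S27 relative that is a known p53 target, and Mthfd1, an enzyme of folate metabolism. Rps27l had 1099.5 and 1455 TPM in the intact pair and 738 and 868 TPM in the deleted pair, without overlap, whereas Mthfd1 overlapped between the labels. With up to 3 departures, 28 of 143 genes outside the 8 (19.6%) were higher in both intact libraries, beside 14.3% of the 6948 genes that had a window. No promoter was assayed, so these are matches of letters and not sites of binding.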

How the data were processed

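RNA from 4 cultures was measured, with 1 library for each of the 4 groups, which were taken from the sample titles. The authors deposited 1 table of TPM per gene, in which each library summed to just under 1000000. The submitters' processing notes name Trimmomatic, HISAT2, StringTie and the mm10 build, without versions or roles. The labels describe a stranded short-read mRNA kit, the text of the series long reads, so the platform behind the values is open. Values above 0 went down to 1e-06, so reads could not be recovered, the depth is unknown and no interval for counting error was given.

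Differences were taken as log2(TPM + 1) for genes with at least 10 TPM in at least 1 library compared, and called at 1. No test was run, since there were no replicates. The 8 genes, the 9 other lists and the contrasts were chosen with earlier results of these data known. Genes were named if they were among the 8 or the targeted genes, relatives of the 8 with at least 10 TPM, list members called in both Trp53 contrasts, or among the 5 nearest by pattern; others were picked after their values were seen. Positions came from GENCODE M21 (GRCm38), where 55141 of the 55487 IDs were found, and promoter windows from RefSeq (GRCm38.p6). The code was tested on simulated data. Alternatives were a pseudocount of 0.1 or 5, a minimum of 1 TPM, none, or 10 TPM in every library compared, quantile normalization, contrast medians set to 0, removal of mitochondrial and ribosomal protein genes, and a 1.5-fold threshold. A correction for GC content and length and, for the lists, a minimum of 10 TPM on the mean over all libraries or none were chosen after seeing the data. Python 3.11.15, numpy 2.4.6, pandas 2.3.3 and matplotlib 3.10.9 were used.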

Additional observations from a re-analysis of the deposited data

Results flagged for a closer look

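For 4 of the 8 arrest genes the difference for the Tut1 label had opposite signs with Trp53 intact and between the Trp53-deleted libraries, close to the 54.2% of 8694 genes tested that did so, and the count is no result about these genes. Cre-LNP was compared with empty LNP only in the contrast with Trp53 intact. With 1 library per group this was not tested. The value given is the difference for the Tut1 label with Trp53 intact, less that between the Trp53-deleted libraries, on the log2(TPM + 1) scale. It was 0.48 for Cdkn1a, from 0.34 and -0.13. It was -0.49 for Ccng1, from -0.20 and 0.30, and -0.35 for Zmat3, from -0.13 and 0.22. For these 2 genes the signs were no longer opposite with a correction for GC content and length, which turned the first difference to 0.12 for Ccng1 and 0.115 for Zmat3. For Gadd45a it was -0.69, from -0.54 and 0.16, and its 2 Trp53 differences (-0.37 and 0.32) had opposite signs as well. Sex-linked expression splits the libraries in the same way as this value, so they cannot be told apart. All of these single differences were under 1 in size.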

How the results depend on the processing

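The 6 arrest genes that were higher in both Trp53-intact libraries numbered 6 under every other pseudocount and scaling, the GC and length correction included. No arrest gene was called higher in any of the 5 contrasts under any alternative. With a 1.5-fold threshold, 5 genes rather than 2 were lower in double KO minus Tut1 KO, Zmat3, Btg2 and Gtse1 being added by the lower threshold itself. The median difference of the arrest genes ranged from -0.70 to -0.56 in Trp53 KO minus control and from -0.72 to -0.59 in double KO minus Tut1 KO. The -0.70 came from the minimum of 10 TPM in every library compared, which left Gadd45a out of both contrasts. Of 356 differences of single genes computed under alternatives, 3 lost their call, all of them for Zmat3 in Trp53 KO minus control (-0.97 once contrast medians were set to 0, -0.92 with a pseudocount of 5 and -0.92 with the GC and length correction). None gained one, 9 changed sign, the largest of them -0.20 before the change, and 4 moved by more than the median absolute deviation of all genes, all under the GC and length correction. That correction gave Ccng1 0.12 and Zmat3 0.115 in Tut1 KO minus control, and -1.39 and -0.89 in double KO minus Tut1 KO. Over all genes, quantile normalization changed the calls of Tut1 KO minus control from 134 higher and 236 lower to 173 and 195, and a minimum of 1 TPM raised the lower calls of Trp53 KO minus control from 173 to 345. Of the apoptosis targets, 11 of 13 were higher in both intact libraries with the minimum of 10 TPM in some library and 9 of 10 with it set on the mean, and the median of their mean Trp53 differences moved from -1.14 to -1.09. No paired analysis was possible because each group holds 1 library, and for the same reason no library could be left out of a group. TPM keeps no depth, so low genes such as Gadd45a and Sesn1 carry an unknown counting error.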

Other observations

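Arrest-linked p53 targets of low level were left out of the counts by the minimum of 10 TPM and are given as values, picked out after they were seen. Trp53cor1, the long non-coding RNA also called lincRNA-p21 that is transcribed next to Cdkn1a, had 2.94 and 2.75 TPM in the Trp53-intact pair (control and Tut1 KO) and 1.32 and 1.36 TPM in the deleted pair (Trp53 KO and double KO). Both of its intact libraries lay above both deleted ones, as for 6 of the 8 arrest genes. Pml, which encodes a nuclear body protein, had the reverse order, with 4.79 and 4.99 TPM in the intact and 8.16 and 5.38 TPM in the deleted pair. Epha2, a receptor kinase gene, had 2.71 and 2.92 TPM in the intact and 2.65 and 2.28 TPM in the deleted pair, with the intact libraries only slightly higher. Sfn, which encodes the checkpoint protein 14-3-3 sigma, had 0.43 and 1.07 TPM in the intact and 0.79 and 1.31 TPM in the deleted pair, and the pairs overlapped.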
